A study of Mus musculus with 16 samples.

Results

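The death ligands and death receptors are described here across the cells of B16 melanomas by 8 genes: the ligands Tnf, Fasl and Tnfsf10, the receptors Fas, Tnfrsf10b, Tnfrsf1a and Tnfrsf1b, and Casp8, the protease that the receptors engage. Members were chosen by gene symbol, and each symbol matched 1 of the 32285 genes listed in each of the 8 matrices. Single-cell RNA sequencing of CD45-enriched tumour cells was used to measure them in 16 mice. Every mouse was of the C57BL/6J strain and carried a subcutaneous tumour grown from 1000000 Bro4.1 B16 melanoma cells, and tumours were collected on day 14. The design crossed the genotype of the implanted cells, control or B2m-null (lacking the light chain of MHC class I), with the antibody given. Injections into the peritoneum on days 6, 9 and 12 gave either 100 µg of anti-CD40, an agonist of that receptor, or rat IgG2a as the isotype control. The groups, named by tumour and antibody, are control isotype (5 mice), control CD40 (2 mice), B2m-null isotype (5 mice) and B2m-null CD40 (4 mice), and 4 values in a row below follow this order unless another is given. Each hashtag in a file was taken as 1 mouse, but the labels list 3 hashtags for every pool and 6 of the 8 files hold 2, so the number of mice, above all the 2 under control CD40, rests on the files. The sample labels give the genotype as the mouse's own, whereas the design text places the loss of B2m in the implanted cells, and the design text was followed. Whether the B2m-null line is 1 clone is not given in the sources used here. In that reading the mice's own cells keep B2m, and all 4 groups share the strain and the parental tumour line.

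Death ligands are members of the TNF family, made by activated T cells, natural killer (NK) cells and myeloid cells. Fas, the receptor of Fasl, and Tnfrsf10b, the mouse receptor of Tnfsf10 (TRAIL), carry a death domain that recruits Fadd and Casp8 and can start apoptosis. Tnfrsf1a, the main receptor of Tnf, also has a death domain but mostly signals through NF-kB, whereas Tnfrsf1b lacks one and serves in T cell and regulatory T cell survival. Cytotoxic lymphocytes use Fasl and Tnfsf10 to kill target cells beside the granule pathway, and Fas also ends T cell responses after repeated stimulation.

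The 8 lanes held 46.0 to 99.3 M counts (M, 1000000) of unique molecular identifiers (UMIs), and the median barcode of a lane held 1715 to 4225. Hashtags assigned 56.3% of the barcodes of the first B2m-null isotype lane and up to 90.8% elsewhere, and 78433 cells of known mouse passed the filters. Mice of a group were pooled before loading, and both control CD40 lanes came from 1 pool, so group, pool and lane cannot be told apart in full. Each isotype group and the B2m-null CD40 group had 2 pools. Cell classes were rebuilt from clusters and markers, and they are "like" their names only: for example CD8 T-like, NK-like, monocyte-like and melanoma-like cells. They are called by the plain name below, and a difference from the study's own classes may come from this. In melanoma cells, B2m was at 1023 to 1721 CPM (counts of the gene per 1000000 counts of the cell set) in the 5 control isotype mice and 1893 to 2215 CPM in the 2 control CD40 mice. With B2m-null tumours, 3 isotype mice had 340 to 387 CPM, and the only CD40 mouse with enough melanoma cells had 634 CPM. The macrophage markers C1qa, C1qb, C1qc and Apoe in the melanoma cells summed to 820 CPM or more in every group. Only their sum was taken, and how much of it was macrophage RNA was not tested. Unnamed clusters held 8.31% of the cells of the average control isotype mouse, 9.68% in control CD40, 4.60% in B2m-null isotype and 6.92% in B2m-null CD40.

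Fas (ENSMUSG00000024778) lies at chr19:34290666-34327772 on the plus strand of mm10, Fasl (ENSMUSG00000000817) at chr1:161780689-161788495 on the minus strand and Tnf (ENSMUSG00000024401) at chr17:35199381-35202007 on the minus strand. Tnfsf10 (ENSMUSG00000039304) lies at chr3:27317028-27342427 and Tnfrsf10b (ENSMUSG00000022074) at chr14:69767472-69784411, both on the plus strand. Tnfrsf1a (ENSMUSG00000030341) is at chr6:125349362-125362484 on the plus strand, Tnfrsf1b (ENSMUSG00000028599) at chr4:145213463-145246870 on the minus strand and Casp8 (ENSMUSG00000026029) at chr1:58795374-58847503 on the plus strand. These positions are whole gene spans of exons and introns, and no peak, variant or other measurement within them was analysed here.

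Promoters are shown of the 3 members that rose in monocytes with macrophages under anti-CD40 with either tumour. The 250 bases before the annotated start are from RefSeq for GRCm38.p6 (the assembly behind mm10), at chr19:34290409-34290658 on the plus strand for Fas, chr1:161788496-161788745 on the minus strand for Fasl and chr4:145246871-145247120 on the minus strand for Tnfrsf1b. Capitals mark matches to motifs searched on both strands.
Fas: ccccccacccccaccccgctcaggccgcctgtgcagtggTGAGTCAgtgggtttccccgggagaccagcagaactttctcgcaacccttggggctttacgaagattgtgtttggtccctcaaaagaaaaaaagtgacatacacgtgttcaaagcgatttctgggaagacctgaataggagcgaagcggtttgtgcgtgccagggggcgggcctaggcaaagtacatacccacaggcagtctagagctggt
Fasl: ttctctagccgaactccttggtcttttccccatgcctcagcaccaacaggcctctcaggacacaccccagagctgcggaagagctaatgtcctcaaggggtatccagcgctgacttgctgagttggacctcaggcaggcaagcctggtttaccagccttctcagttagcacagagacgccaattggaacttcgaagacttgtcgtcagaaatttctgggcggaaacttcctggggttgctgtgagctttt
Tnfrsf1b: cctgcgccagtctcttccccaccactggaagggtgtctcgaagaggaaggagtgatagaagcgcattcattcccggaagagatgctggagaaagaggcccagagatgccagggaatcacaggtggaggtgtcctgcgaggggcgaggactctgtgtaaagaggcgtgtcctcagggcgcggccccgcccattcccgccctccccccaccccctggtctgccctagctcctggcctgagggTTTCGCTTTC
The motifs searched were the interferon response element ISRE (GAAA, any 2 letters, then GAAA), the AP-1 site TGANTCA, and the NF-kB site. Fas held the AP-1 match TGAGTCA 211 bases before its start. Tnfrsf1b held TTTCGCTTTC, an ISRE on the other strand, 10 bases before its start. Fasl held no match to any of these motifs in this window, and neither did Tnf, Tnfsf10, Tnfrsf1a or Casp8. Of 32851 promoters of the same length, 6.75% held the AP-1 site, 3.90% the NF-kB site and 2.98% the ISRE. The matches are descriptions of the letters and not measured binding. Tnfrsf10b was named only, with no promoter shown.

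The ligands were made by different cells. Levels are given as CPM within a class, the mean ± SD over the mice with at least 20 cells of it, across all groups. Tnf was highest in neutrophils at 291 ± 106 (n = 12) and monocytes at 218 ± 60.4 (n = 16), which overlapped, followed by macrophages at 81.4 ± 23.4 (n = 16). Monocytes and macrophages were apart by 1 SD, but their ranges over mice, 106 to 324 and 42.1 to 124 CPM, overlapped. Tnf was 51.7 CPM on average in regulatory T cells and in CD4 T cells, 20.8 in CD8 T cells and 14.1 in NK cells. Among these T and NK classes only, Fasl had the opposite order. It was at 125 ± 27.1 CPM in NK cells (n = 15), 74.6 ± 24.5 in CD8 T cells (n = 15) and 51.0 ± 41.8 in CD4 T cells (n = 11), each neighbour overlapping the next. Regulatory T cells had 18.5 ± 20.3 CPM of Fasl, and monocytes and macrophages had 0.734 and 0.609 CPM. Tnfsf10 was at 170 ± 34.5 CPM in endothelial cells (n = 2), then at 81.5 in CD4 T, 62.7 in CD8 T, 60.5 in NK and 49.7 in regulatory T cells, whose spreads overlapped. Monocytes had 7.06 CPM of Tnfsf10 and macrophages 4.72, so its level within a class was highest in endothelial, T and NK cells. Summed over the same mice, CD8 T cells held 2086 counts of it, NK cells 363, regulatory T cells 332 and CD4 T cells 265. Macrophages held 762, monocytes 294 and endothelial cells 78, while the unnamed clusters held 858, more than any named class but CD8 T cells.

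**Figure D1:**
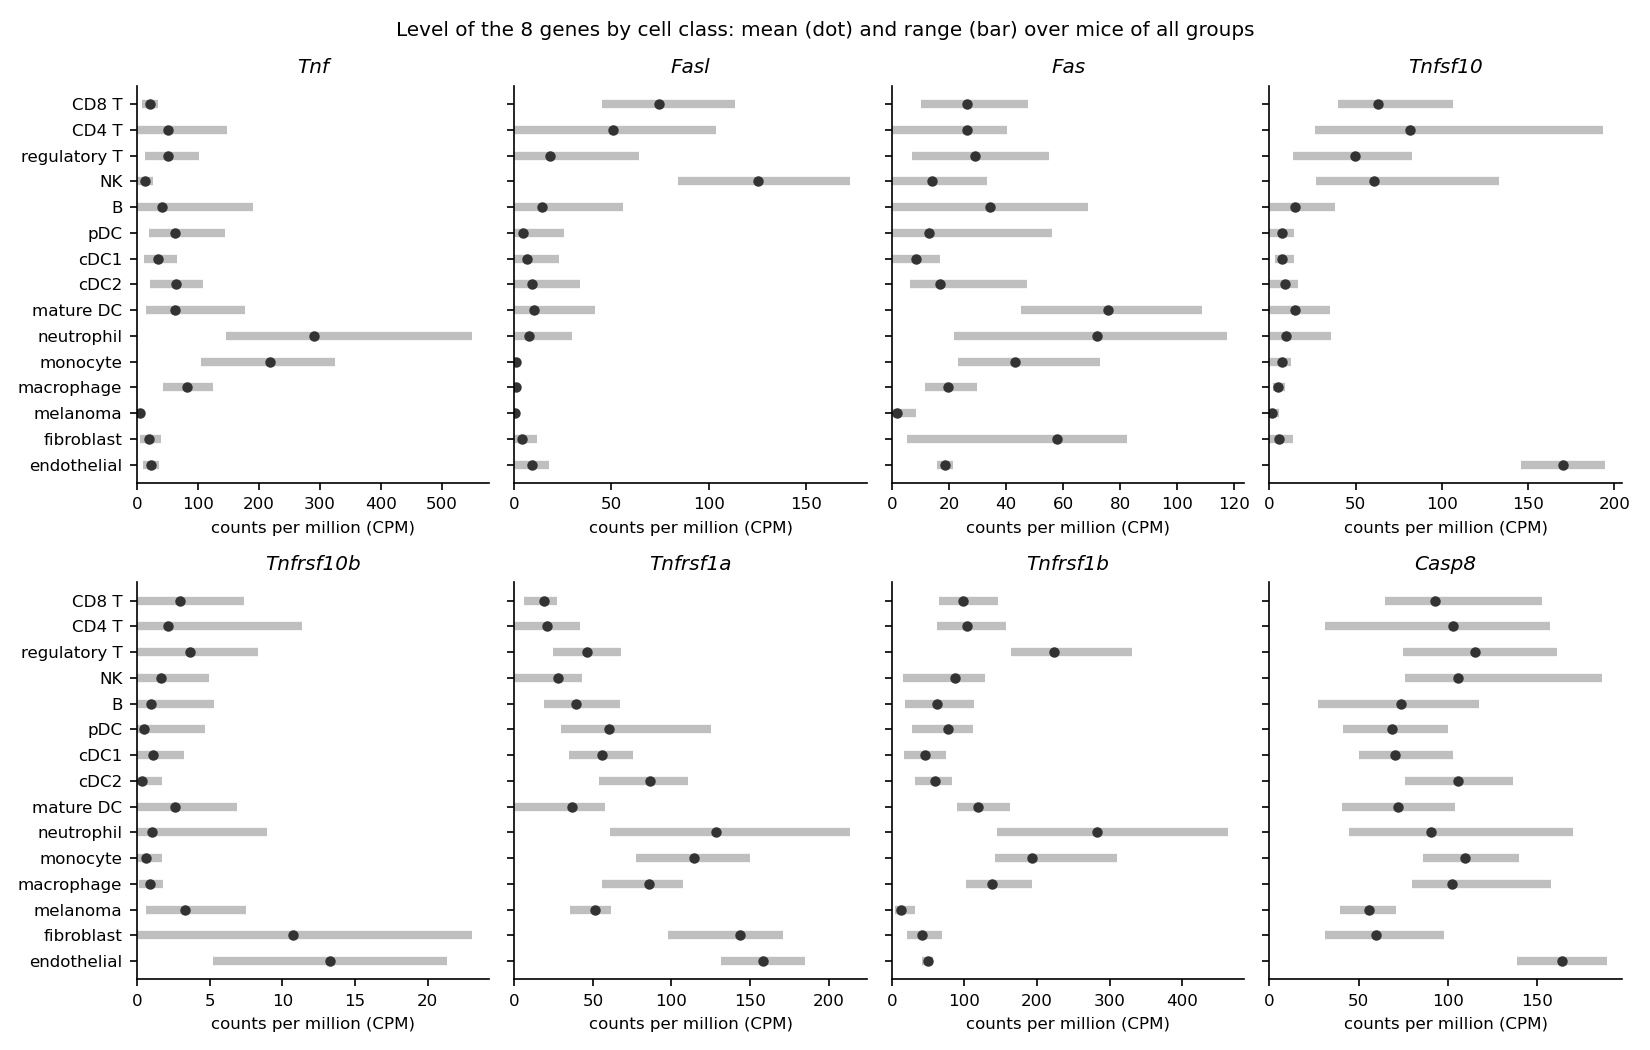
Level of each of the 8 genes in CPM (linear axis) in 15 cell classes, with the mean over mice as a dot and the lowest and highest mouse as a bar. Fasl is highest in NK and CD8 T cells and Tnf in neutrophils and monocytes, while Casp8 lies between 55.9 CPM in melanoma cells and 164 CPM in endothelial cells.

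The receptors differed in where they were highest. Fas was at 75.6 ± 18.8 CPM in mature dendritic cells (n = 13), 71.7 ± 26.9 in neutrophils (n = 12), 57.9 ± 25.9 in fibroblasts (n = 11) and 43.2 ± 14.4 in monocytes (n = 16), neighbours that overlapped. CD8 T cells and CD4 T cells both had 26.2 CPM of Fas, NK cells 14.2, cDC1 dendritic cells 8.50 and melanoma cells 1.95 ± 2.82 (n = 11). Tnfrsf1a was at 158 ± 37.7 CPM in endothelial cells (n = 2), 144 ± 22.8 in fibroblasts, 128 ± 43.6 in neutrophils and 115 in monocytes. Melanoma cells had 51.3 ± 8.48 CPM of Tnfrsf1a and CD8 T cells had the lowest mean of the classes named here, 19.0 ± 5.76. Regulatory T cells had 46.2 CPM of Tnfrsf1a. Tnfrsf1b was at 282 ± 76.8 CPM in neutrophils, 224 ± 39.4 in regulatory T cells and 193 in monocytes. Macrophages had 137 CPM of it, mature dendritic cells 119, CD4 T cells 103, CD8 T cells 98.0 and NK cells 87.5. In melanoma cells Tnfrsf1b was at 12.2 ± 7.87 CPM. Tnfrsf10b was sparse everywhere, at 13.3 ± 11.4 CPM in endothelial cells, 10.8 ± 7.35 in fibroblasts and 3.34 ± 1.78 in melanoma cells, and only 0.814% of all kept cells had a count of it. Casp8 ranged from 164 ± 35.9 CPM in endothelial cells to 55.9 ± 9.75 in melanoma cells, with regulatory T cells at 115 ± 24.3 and monocytes at 110 ± 16.5 between them.

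The classes that held most of each ligand's transcripts differed with the number of cells in them. CD8 T cells held 33.5 ± 5.93% of all Fasl counts of a control isotype mouse, at 6.49% of its cells, and 63.7 ± 0.281% of a control CD40 mouse, at 33.2% of its cells. With B2m-null tumours, the corresponding shares were 21.5 ± 15.4% under isotype, at 2.81% of cells, and 51.7 ± 16.5% under CD40, at 21.0% of cells. Over all groups, in mice with at least 20 cells of a class, CD8 T cells held 3328 Fasl counts, the unnamed clusters 1050 and NK cells 746. NK cells held 26.8%, 9.92%, 24.4% and 10.5% of Fasl counts in the 4 groups. For Tnf, macrophages held 45.6%, 55.2%, 50.1% and 44.0% in the same order, and monocytes 35.8%, 13.8%, 26.8% and 32.5%. CD8 T cells held 25.6%, 52.8%, 12.7% and 36.8% of Tnfsf10 counts. These shares join the number of cells with the RNA per cell. Levels below are in CPM within a cell set, and transcripts of other cell types counted in those sets are given beside several of the results.

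The 4 comparisons and their interaction were tested on counts summed per mouse with edgeR's quasi-likelihood test, in 7 cell sets: monocytes with macrophages, conventional dendritic cells, CD8 T, CD4 T, regulatory T, NK and melanoma cells. A gene and set pair was called at an adjusted p under 0.05 over all genes tested in that set. Anti-CD40 in control tumours gave 9 calls among 42 tested pairs of the members (21.4%), all higher, where 14.6% of all gene and set pairs were called and 8.03% were called higher. In B2m-null tumours it gave 8 calls among 39 (20.5%), again all higher, against 16.4% of all pairs called and 8.81% called higher. B2m-null against control tumours gave 2 calls among 42 under isotype (4.76%), both lower, against 2.55% and 1.38% lower of all pairs. Under CD40 it gave 3 among 39 (7.69%), all lower, against 6.6% and 3.07% lower. Of the 22 calls over all comparisons, Fasl gave 9 and Fas 5, all of them in the CD40 comparisons, so the calls there rest mostly on these genes. Without barcodes holding T cell or CD8 coreceptor transcripts, the Fasl calls in regulatory T cells ended and Fasl in the myeloid sets had no test, as given below. By set, the share of all genes called for CD40 in control tumours was 39.4% in CD8 T cells, 21.5% in monocytes with macrophages, 12.8% in regulatory T cells, 6.28% in NK cells, 3.76% in dendritic cells and 3.39% in CD4 T cells. In B2m-null tumours it was 36.3% in monocytes with macrophages, 10.6% in NK, 10.3% in regulatory T, 8.51% in CD8 T and 8.27% in CD4 T cells. For the genotype it was 8.65% in monocytes with macrophages under isotype, and 11.5% in CD8 T, 8.56% in CD4 T and 4.97% in NK cells under CD40. The 4 comparisons share groups pairwise, so they are not independent of each other. The difference of the CD40 effects between the genotypes had 0 calls in 39 pairs with edgeR, 4 at an unadjusted p under 0.05 and 0 with limma, where 8.17% of all pairs were called. DESeq2 called 0 and gave no adjusted p for 14 of the 39.

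**Figure D2:**
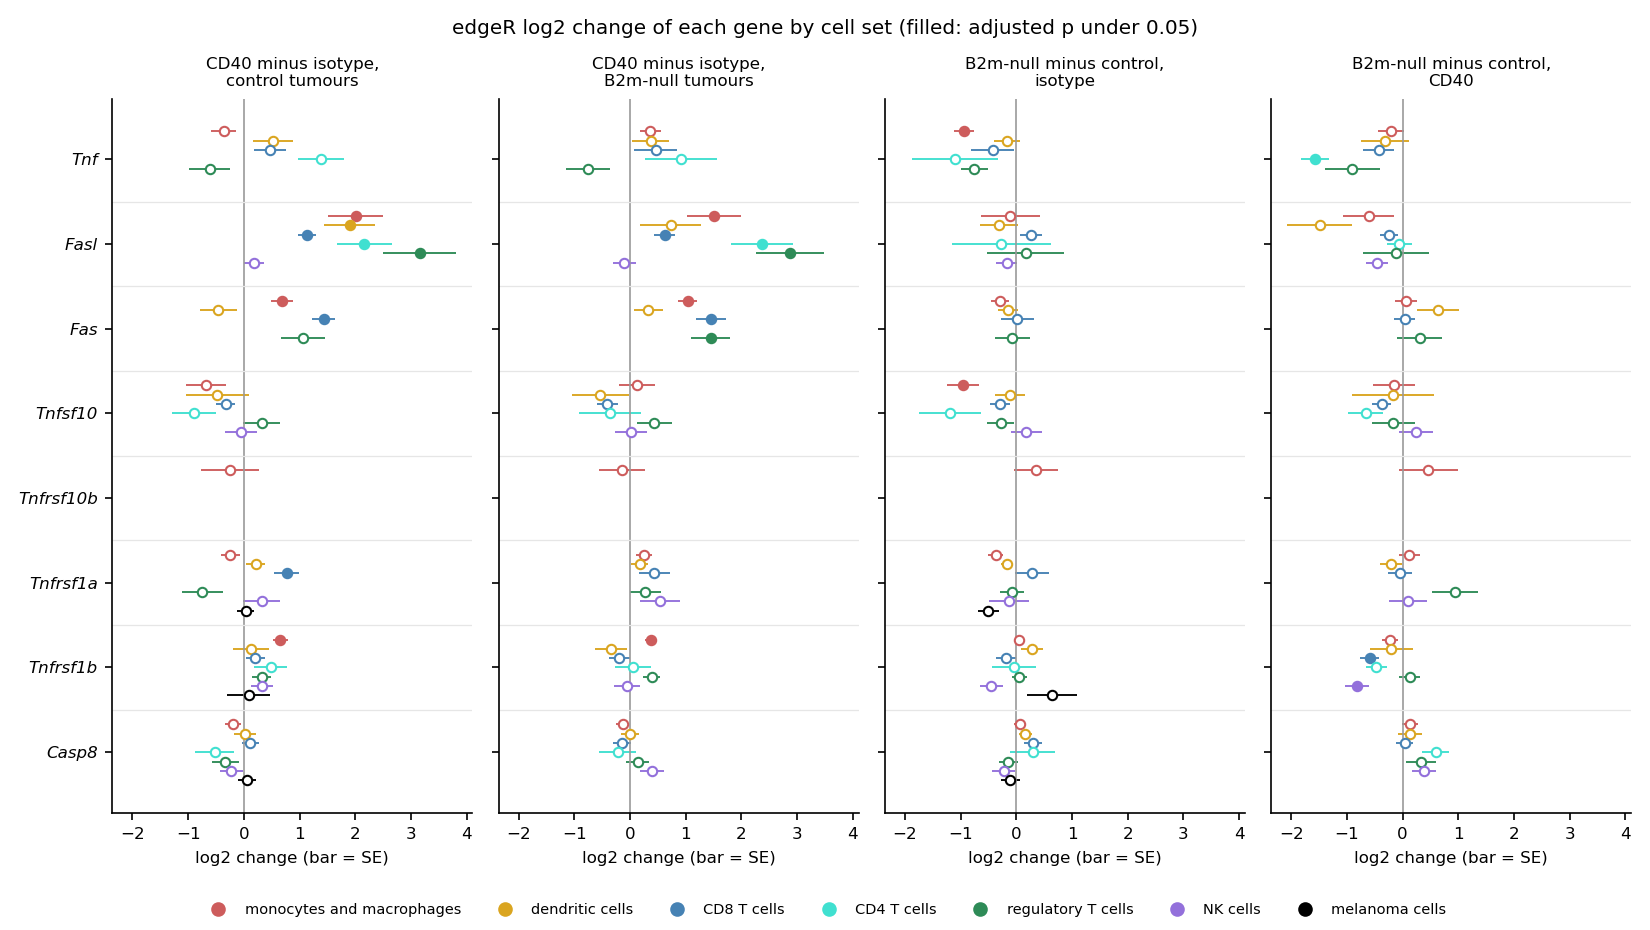
Log2 change ± SE of each member in each cell set in the 4 comparisons, with filled points where edgeR's adjusted p was under 0.05. Filled points lie above 0 in both CD40 comparisons (9 and 8) and below 0 in both genotype comparisons (2 and 3).

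Fasl, the ligand of Fas, rose in CD8 T cells of mice given anti-CD40 with control tumours. The 5 control isotype mice had 51.6, 50.7, 56.8, 47.9 and 50.6 CPM and the 2 control CD40 mice 114 and 107 CPM. The groups did not overlap, and the 2.18-fold rise (log2 1.13 ± 0.16 SE, adjusted p = 1.79e-05, edgeR) held in each of 36 tested alternatives. With B2m-null tumours, isotype mice 1, 3, 4 and 5 had 99.6, 94.2, 56.3 and 45.1 CPM and the CD40 mice 75.1, 81.3, 100.3 and 89.7 CPM. Here the groups overlapped: isotype mice 1 and 3, of the first lane, lay as high as the treated mice, and mouse 2 was left out of the fit for too few CD8 T cells. The fitted rise was 1.54-fold (log2 0.62 ± 0.19, adjusted p = 0.0408), it was lost without the second isotype lane (adjusted p = 0.833) or the second CD40 lane (adjusted p = 0.417), and with cells thinned to 1500 UMIs the log2 change was -0.02. Thinning left out the shallower cells, which were 364, 4908, 147 and 1108 of the CD8 T cells in the 4 groups and left 1037, 3407, 341 and 3119, so it compares a deeper subset. The call held in 14 of 37 tested alternatives, and among those that ended it were DESeq2 (adjusted p = 0.0654), RLE size factors (0.0581), the stricter cell filter (0.0644) and leaving out any of the 5 control isotype mice (0.0515 to 0.0623), whose data enter the shared fit. The difference between both CD40 effects was -0.51 ± 0.25 on the log2 scale (adjusted p = 0.224), and without the second B2m-null CD40 lane it was -0.74 ± 0.26 (adjusted p = 0.0481).

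CD8 T cells were made up of different clusters in the groups. Cluster 9, led by Gzmf, Ifng, Gzmb and Prf1, held 72.8% of the CD8 T cells in control isotype, 14.1% in control CD40, 54.3% in B2m-null isotype and 26.0% in B2m-null CD40. Cluster 0, led by Ccl5, Gzmk, Cd8a and Tox, held 24.0%, 61.5%, 35.0% and 36.0% in that order, and cluster 10, led by Gzmk and Cd8b1, held the rest. Within cluster 9 alone, Fasl was at 44.8 ± 9.66, 90.2 ± 5.35, 66.8 ± 33.7 and 64.8 ± 6.75 CPM in the 4 groups. Fasl was higher under CD40 in 3 of 3 CD8 T clusters with control tumours and in 1 of 3 with B2m-null tumours. After thinning to 1500 UMIs a cell, 8.52%, 14.7%, 13.5% and 11.6% of CD8 T cells had a Fasl count, against 0.0437%, 0.178%, 0.115% and 0.0666% of macrophages. Unthinned, the shares in CD8 T cells were 19.7%, 17.2%, 20.1% and 22.5%, at median depths of 3254, 1202, 2376.5 and 2217 UMIs.

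**Figure D3:**
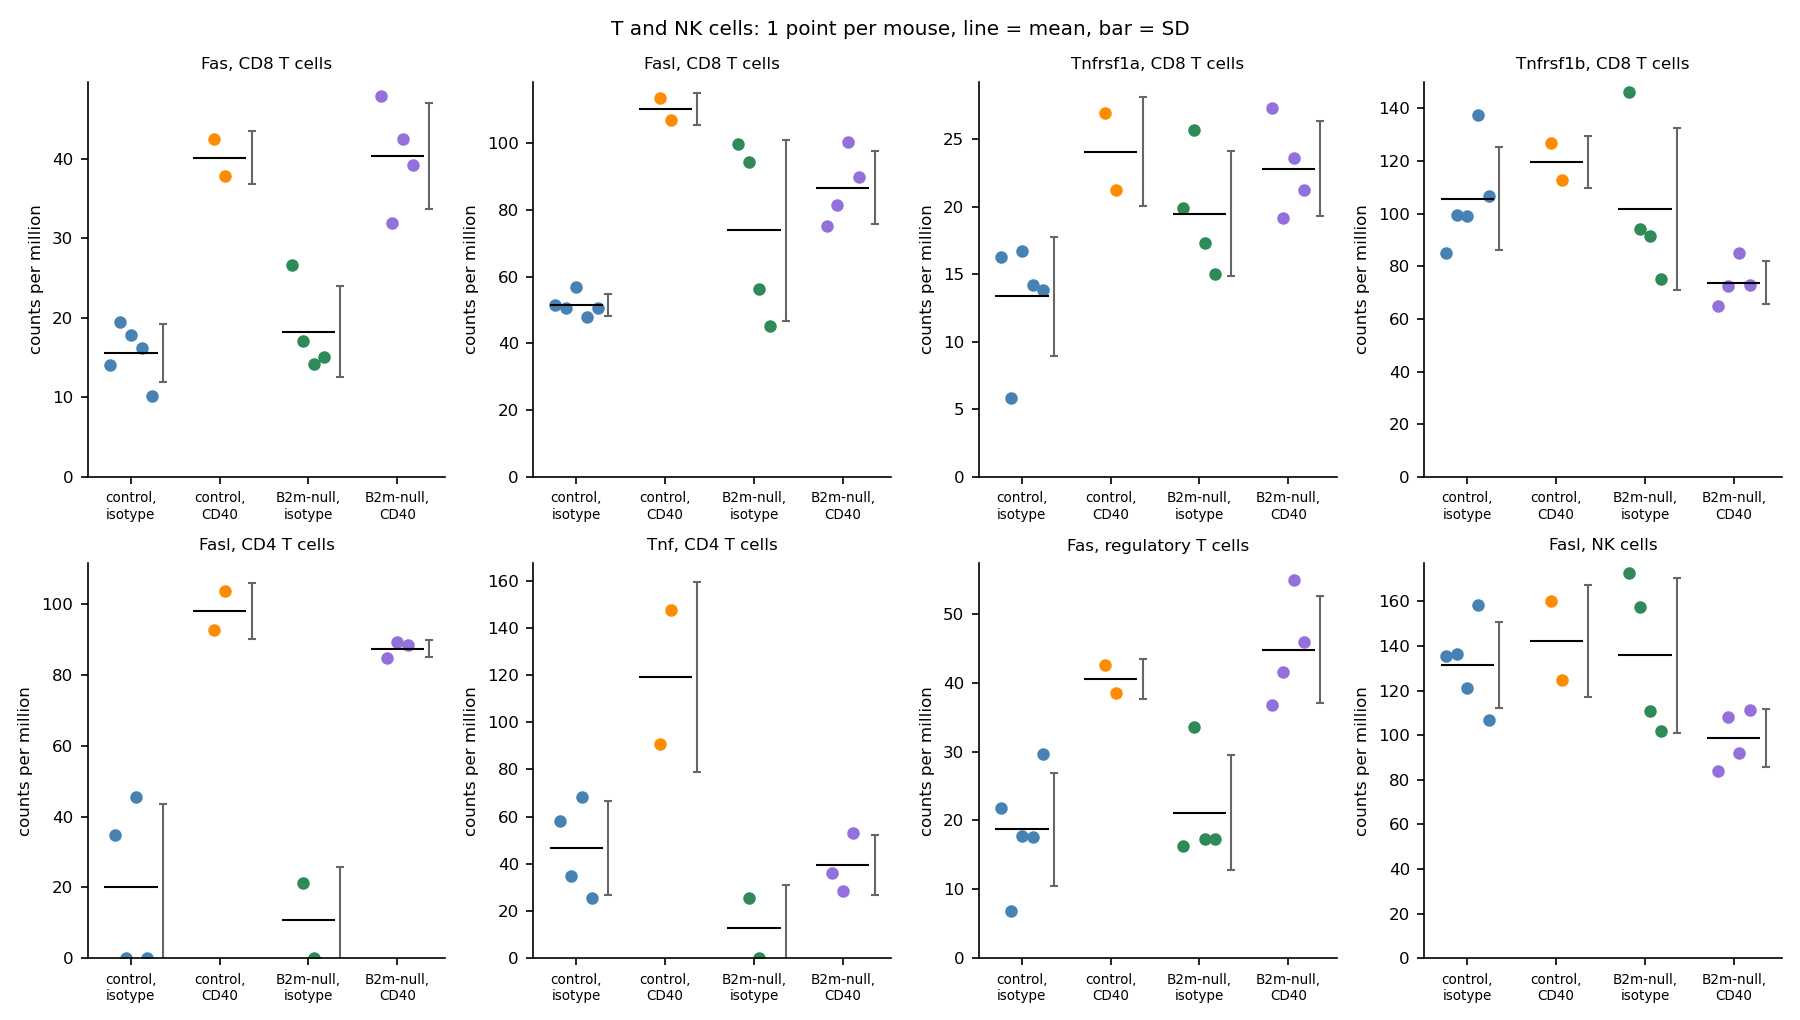
Level in CPM in each mouse (points, with the group mean as a line) for Fas, Fasl, Tnfrsf1a and Tnfrsf1b in CD8 T cells, Fasl and Tnf in CD4 T cells, Fas in regulatory T cells and Fasl in NK cells. The CD40 mice lie above all isotype mice of the same tumour genotype for Fas in CD8 T cells, and the groups overlap for Fasl in NK cells.

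The helper and regulatory sets also had more Fasl under CD40, from low starting levels. Control isotype mice 1, 2, 4 and 5 had 34.8, 0, 45.5 and 0 CPM in CD4 T cells and the control CD40 mice 92.6 and 104 CPM (log2 2.16 ± 0.49, adjusted p = 0.00782). B2m-null isotype mice 4 and 5 had 21.4 and 0 CPM and B2m-null CD40 mice 2, 3 and 4 had 84.7, 89.3 and 88.5 CPM (log2 2.37 ± 0.56, adjusted p = 0.00574). The groups did not overlap, but the isotype values rest on 24 to 108 cells a mouse, and the other mice had too few CD4 T cells to enter the fit. Leaving out control isotype mouse 5 (adjusted p = 0.0541), either control isotype lane (0.108 and 0.0941) or control CD40 mouse 2 (0.0772) ended the call in control tumours. Leaving out B2m-null isotype mouse 4 ended the call in B2m-null tumours (adjusted p = 0.178), for which DESeq2 gave 2.39 ± 0.74 with no adjusted p. In regulatory T cells, control isotype mice had 5.12, 11.5, 0, 2.51 and 6.98 CPM and the control CD40 mice 49.7 and 40.5 CPM, an 8.91-fold rise (log2 3.16 ± 0.66, adjusted p = 0.00192). B2m-null isotype mice 1, 2, 4 and 5 had 0, 6.72, 9.78 and 0 CPM and the B2m-null CD40 mice 18.4, 25.0, 36.6 and 64.1 CPM (log2 2.87 ± 0.61, adjusted p = 0.00252). All CD40 mice were above all isotype mice of their genotype. The control call was lost without control CD40 mouse 2 (adjusted p = 0.109) and with thinned cells (0.183), and the B2m-null call without the second CD40 lane (0.512).

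CD8 coreceptor transcripts, Cd8a and Cd8b1, moved with Fasl in these sets. Their summed level in regulatory T cells was 20.6 to 141 CPM in control isotype, 490 to 549 in control CD40, 12.3 to 90.3 in B2m-null isotype and 147 to 724 in B2m-null CD40. Fasl per 1000 CD8 coreceptor counts in that set was 64.1, 79.4, 99.3 and 67.5 in the same order. In CD4 T cells the coreceptor level was 127 to 296, 431 to 489, 145 to 279 and 446 to 916 CPM, and Fasl per 1000 of those counts was 100.0, 213, 116 and 180, higher in both CD40 groups. Without barcodes that held a CD8 coreceptor count, 49.0% of control CD40 and 43.0% of B2m-null CD40 regulatory T barcodes were gone. Fasl was then at 3.72, 24.2, 1.89 and 23.4 CPM over the pooled cells, and neither call held, with log2 changes of 2.61 ± 1.13 in control (adjusted p = 0.238) and 3.38 ± 1.10 in B2m-null tumours (adjusted p = 0.0800). In CD4 T cells the same step left 19.8, 107, 18.5 and 94.1 CPM, and both calls held. This alternative was chosen after the data had been seen.

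Myeloid cells had few Fasl transcripts, yet the gene was called there. Monocytes with macrophages had 0.969, 0.154, 0.442, 0.323 and 0.0813 CPM in control isotype mice and 1.27 and 1.48 CPM in control CD40 mice, 22 and 60 counts in all (log2 2.01 ± 0.50, adjusted p = 0.00852). With B2m-null tumours the isotype mice had 0.377, 0.861, 0.485, 0.560 and 0.132 CPM and the CD40 mice 0.856, 1.01, 0.890 and 0.845 CPM, 22 and 51 counts (log2 1.51 ± 0.48, adjusted p = 0.0211). The control groups did not overlap, while B2m-null isotype mouse 2 lay within the treated range. Fasl was higher under CD40 in 6 and lower in 3 of 10 clusters with control tumours, and in 9 and 1 with B2m-null tumours. Conventional dendritic cells had 9.46, 5.27, 5.18, 4.35 and 6.32 CPM in control isotype mice and 26.3 and 20.9 CPM in control CD40 mice (log2 1.90 ± 0.46, adjusted p = 0.0158). With B2m-null tumours the dendritic cell change was 0.73 ± 0.55 (adjusted p = 0.420), where B2m-null CD40 mouse 2, at 24.6 CPM, stood above the other CD40 mice at 1.76 to 5.83 CPM.

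T cell receptor complex transcripts (Cd3e, Cd3d, Cd3g and Trac) moved with Fasl in the myeloid sets. In monocytes with macrophages their summed level was 9.42 to 16.9 CPM in control isotype, 30.8 to 44.2 in control CD40, 9.73 to 20.4 in B2m-null isotype and 16.7 to 35.6 in B2m-null CD40. Fasl per 1000 of these T cell counts was 29.9, 34.8, 30.3 and 33.9 in monocytes with macrophages, and 19.0, 36.7, 28.0 and 25.3 in CD8 T cells. Per 1000 CD8 coreceptor counts (Cd8a and Cd8b1), Fasl was at 150, 94.0, 155 and 94.3 in monocytes with macrophages, lower in both CD40 groups, and at 49.7, 81.5, 58.0 and 59.2 in CD8 T cells, so this ratio lay higher in the myeloid set in each group. In dendritic cells Fasl was at 19.6, 36.8, 21.3 and 19.5 per 1000 T cell receptor complex counts and at 69.6, 92.7, 83.0 and 61.0 per 1000 CD8 coreceptor counts. Leaving out barcodes with any of these T cell transcripts took the Fasl counts from 22, 60, 22 and 51 to 13, 22, 12 and 24 in monocytes with macrophages, and from 78, 28, 58 and 13 to 16, 2, 17 and 1 in dendritic cells. At those counts Fasl no longer passed the filter on low counts and had no test. Its pooled level in monocytes with macrophages went from 0.372, 1.44, 0.334 and 0.907 CPM to 0.229, 0.601, 0.191 and 0.476 CPM, and both CD40 groups stayed above the isotype group of their genotype. In dendritic cells it went from 6.15, 22.3, 4.73 and 7.49 CPM to 1.82, 3.55, 1.90 and 0.828 CPM. The monocyte and macrophage call in control tumours was also lost without control CD40 mouse 2 (adjusted p = 0.159) or the second control isotype lane (0.0587). In B2m-null tumours it was lost without B2m-null isotype mouse 5 (0.0929) and without each of the 4 lanes compared (0.0576 to 0.135), with the lane as the unit (0.0928), with the stricter cell filter (0.111) and in macrophages alone (0.0631). The dendritic cell call was lost without either control CD40 mouse (0.132 and 0.228), either of the isotype lanes (0.0551 and 0.0599) or either CD40 lane (0.0751 and 0.102), and with the lane as the unit (0.0734). DESeq2 gave this change as 1.94 ± 0.47 with no adjusted p.

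**Figure D4:**
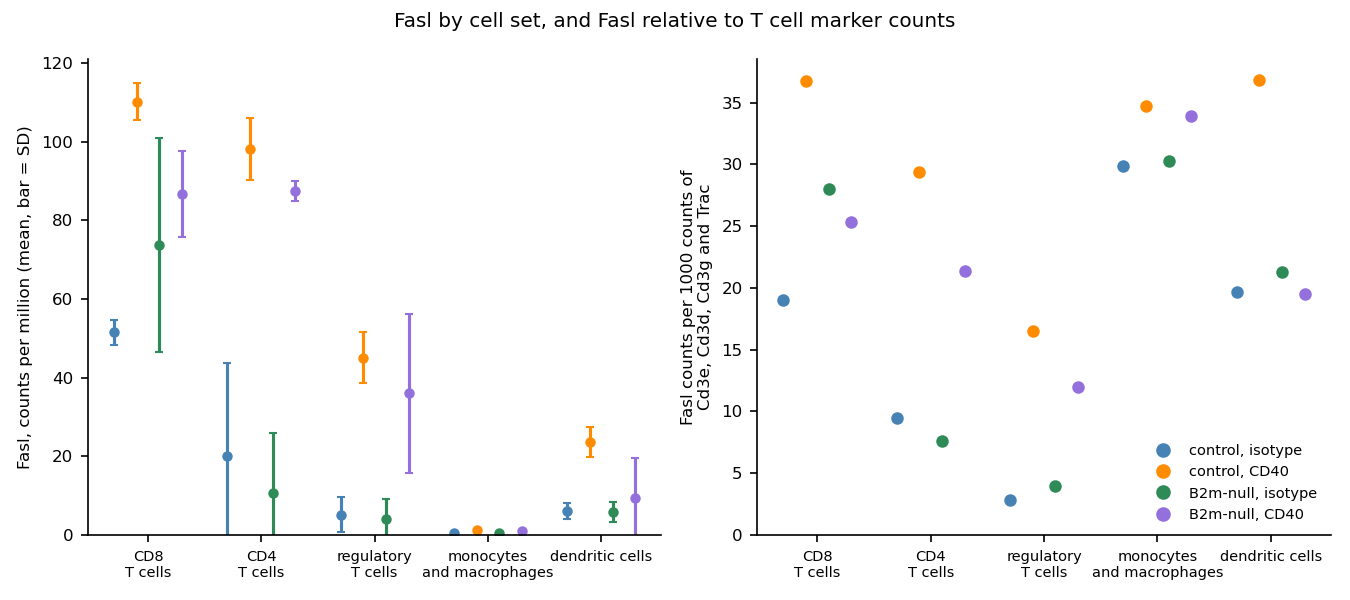
Fasl in CPM, mean ± SD over mice, by cell set and group (left), and Fasl per 1000 counts of the T cell transcripts Cd3e, Cd3d, Cd3g and Trac in the same sets (right). The ratio in monocytes with macrophages is between 29.9 and 34.8 in all 4 groups, and in the CD8 T cells 19.0 to 36.7, while per 1000 CD8 coreceptor counts (not plotted) the values were 94.0 to 155 and 49.7 to 81.5.

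In NK cells, which had the highest Fasl level of any class, Fasl was not called under CD40. Its changes in NK and T cells were not compared by a test. Control isotype mice had 136, 136, 121, 158 and 107 CPM, control CD40 mice 160 and 125 CPM, B2m-null isotype mice 1, 2, 4 and 5 had 173, 158, 111 and 102 CPM, and B2m-null CD40 mice 84.0, 108, 91.8 and 111 CPM. Treated and isotype mice overlapped with either tumour, while both control CD40 mice lay above all 4 B2m-null CD40 mice. The CD40 changes were 0.18 ± 0.19 (adjusted p = 0.655) in control and -0.11 ± 0.21 (adjusted p = 0.899) in B2m-null tumours, and the genotype change under CD40 was -0.46 ± 0.20 (adjusted p = 0.195). Of the 5 members tested in NK cells, edgeR called 0 in either CD40 comparison, where it called 6.28% and 10.6% of all genes. There were 0 at an unadjusted p under 0.05 and 0 with DESeq2 or limma, though DESeq2 gave no adjusted p for 1 in each. Barcodes with T cell receptor complex transcripts were 9.48%, 37.3%, 14.7% and 35.2% of the NK cells in the 4 groups. Without them, pooled Fasl was at 149, 157, 126 and 109 CPM, against 132, 141, 113 and 99.8 CPM with them.

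Tnf, the ligand of Tnfrsf1a and Tnfrsf1b, was lower in the monocytes and macrophages of B2m-null than of control tumours under isotype. Control isotype mice had 180, 178, 145, 116 and 125 CPM and B2m-null isotype mice 72.9, 95.2, 97.0, 97.1 and 47.8 CPM. The groups did not overlap and the level fell by 0.94 ± 0.18 on the log2 scale (adjusted p = 0.00735), in 10 of 10 monocyte and macrophage clusters. In cluster 5, led by Ccl24, Vcan and Arg1, Tnf was at 326 ± 43.4 CPM in control isotype and 216 ± 51.8 CPM in B2m-null isotype mice, and in cluster 1 at 135 ± 16.1 and 82.1 ± 17.8 CPM. In the control CD40 mice these clusters had 328 ± 24.4 and 131 ± 18.0 CPM. The call was lost without the first control isotype lane (adjusted p = 0.248) or the first B2m-null isotype lane (0.101), which leaves 2 mice in that group. Lane by lane under isotype, the level was 170 and 121 CPM with control tumours against 85.7 and 68.1 CPM with B2m-null tumours, without overlap.

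Under CD40, Tnf was not called between the tumour genotypes in this set (-0.21 ± 0.24, adjusted p = 0.610). It was lower with B2m-null tumours in 9 of 10 clusters and higher in 1. Control CD40 mice had 96.3 and 114 CPM and B2m-null CD40 mice 89.2, 85.3, 86.3 and 98.0 CPM. Both control CD40 mice were below all 5 control isotype mice, yet the change of -0.37 ± 0.23 missed the threshold (adjusted p = 0.280), and so did 0.36 ± 0.19 in B2m-null tumours (adjusted p = 0.144). The difference between those CD40 effects was 0.73 ± 0.30 (adjusted p = 0.0981). With cells thinned it was 0.86 ± 0.28 (adjusted p = 0.0406), and without the second control isotype lane 0.92 ± 0.29 (adjusted p = 0.0428). The makeup of the set also moved: cluster 4, led by Gpnmb and Il18bp, held 36.9% of its cells in control CD40 and 3.47% in control isotype, and cluster 8, led by Ly6i, Cfb and Nos2, held 21.4% under CD40 and 2.67% under isotype with B2m-null tumours. After thinning to 1500 UMIs, Tnf was seen in 28.2%, 23.9%, 20.4% and 17.6% of monocytes and in 14.2%, 10.4%, 7.85% and 8.47% of macrophages in the 4 groups.

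**Figure D5:**
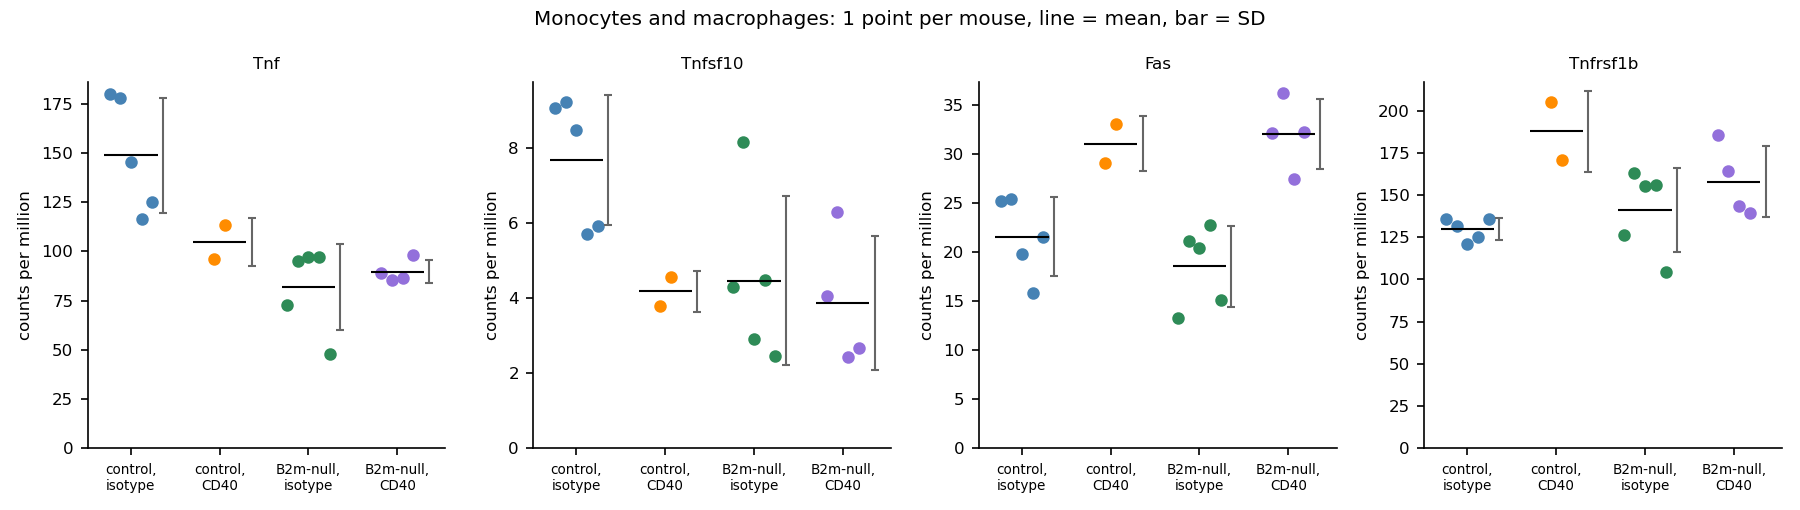
Level in CPM in monocytes with macrophages in each mouse (points, with the group mean as a line) for Tnf, Tnfsf10, Fas and Tnfrsf1b. All 5 control isotype mice lie above the other 11 mice for Tnf, while the CD40 mice lie above the isotype mice of their genotype for Fas.

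In T cells Tnf moved in another comparison. CD4 T cells of the control CD40 mice had 90.7 and 147 CPM and those of B2m-null CD40 mice 2, 3 and 4 had 36.3, 28.6 and 53.3 CPM. These groups did not overlap, and the level fell by 1.57 ± 0.25 on the log2 scale (adjusted p = 0.000267). Control isotype mice 1, 2, 4 and 5 had 58.0, 34.8, 68.2 and 25.4 CPM, and the change under CD40 in control tumours, 1.39 ± 0.42, missed the threshold (adjusted p = 0.0562). The genotype call was lost without control CD40 mouse 2 (adjusted p = 0.189), with marker gates (0.0690) and with the lane as the unit (0.507), where all control CD40 mice are 1 sample. DESeq2 gave a change of -1.51 ± 0.46 with no adjusted p. CD8 T cells had 8.57 to 34.2 CPM of Tnf with all groups overlapping, and changes of 0.47 ± 0.28 (adjusted p = 0.193) and 0.46 (adjusted p = 0.505) under CD40. Regulatory T cells had means of 75.2 ± 22.1, 49.1 ± 0.779, 49.2 ± 22.6 and 26.2 ± 14.6 CPM in the 4 groups, where the genotype change under isotype was -0.75 ± 0.25 (adjusted p = 0.354). Macrophage markers in that set summed to means of 1360, 459, 985 and 695 CPM, highest in control isotype as Tnf was, 21.1% of the cells of its cluster were of mixed lineage, and the part of macrophage RNA in these Tnf values was not tested.

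Tnfsf10, the TRAIL ligand, also fell in the monocytes and macrophages of B2m-null tumours under isotype, near the threshold. Control isotype mice had 9.09, 9.24, 8.48, 5.71 and 5.93 CPM and B2m-null isotype mice 4.30, 8.18, 2.91, 4.48 and 2.47 CPM. Only B2m-null mouse 2 lay within the control range. The change was -0.96 ± 0.29 (adjusted p = 0.0493), and it was lost in 20 of 39 tested alternatives, with adjusted p values up to 0.526. Tnfsf10 was lower in 7 and higher in 3 of the 10 clusters, and the makeup of the set differed: cluster 2, led by Vcam1 and Clec4b1, held 19.3% of its cells in control and 5.45% in B2m-null isotype, and cluster 11, led by Fcrls and Stab1, 5.38% and 19.1%. Control CD40 mice had 3.80 and 4.57 CPM and B2m-null CD40 mice 4.07, 6.32, 2.45 and 2.68 CPM. The difference of the CD40 effects was 0.81 ± 0.48 (adjusted p = 0.247), but 1.65 ± 0.52 with cells thinned (adjusted p = 0.0348) and 2.03 ± 0.60 in monocytes alone (adjusted p = 0.0253). In CD8 T cells Tnfsf10 lay lower under CD40 in 3 of 3 clusters with either tumour, at 84.6, 78.0, 61.3, 76.3 and 72.7 CPM in control isotype and 55.5 and 61.4 CPM in control CD40 mice. Neither CD8 T change was called (-0.33 ± 0.17, adjusted p = 0.121, and -0.41 ± 0.19, adjusted p = 0.187).

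Fas, the receptor of Fasl, rose under CD40 in CD8 T cells and in monocytes with macrophages with either tumour, and in regulatory T cells with B2m-null tumours. CD8 T cells had 14.1, 19.5, 17.8, 16.2 and 10.1 CPM in control isotype and 42.5 and 37.8 CPM in control CD40 mice, a 2.70-fold rise (log2 1.44 ± 0.21, adjusted p = 1.93e-05). B2m-null isotype mice 1, 3, 4 and 5 had 26.6, 17.1, 14.2 and 15.0 CPM and B2m-null CD40 mice 47.8, 31.9, 42.4 and 39.2 CPM, a 2.73-fold rise (log2 1.45 ± 0.27, adjusted p = 0.00214). The groups did not overlap with either tumour, and the difference between the effects was 0.02 ± 0.36 (adjusted p = 0.990). Within cluster 9, whose share differed most, Fas was at 14.2 ± 4.30, 32.3 ± 1.54, 21.2 ± 7.26 and 37.6 ± 5.88 CPM in the 4 groups. The control call held in 36 of 36 tested alternatives. The B2m-null call was lost without isotype mouse 4 (adjusted p = 0.0725), without the second isotype lane (0.226), with the lane as the unit (0.0680) and with thinned cells (0.137). Thinned to 1500 UMIs, 2.99%, 6.28%, 1.41% and 5.33% of CD8 T cells had a Fas count, against 5.78%, 6.72%, 5.53% and 10.5% unthinned.

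Myeloid Fas rose with either tumour. Monocytes with macrophages had 25.2, 25.4, 19.8, 15.8 and 21.5 CPM in control isotype and 29.0 and 33.0 CPM in control CD40 mice, a 1.61-fold rise (log2 0.69 ± 0.19, adjusted p = 0.0177). B2m-null isotype mice had 13.3, 21.1, 20.4, 22.8 and 15.1 CPM and B2m-null CD40 mice 32.1, 36.2, 27.4 and 32.2 CPM, a 2.04-fold rise (log2 1.03 ± 0.17, adjusted p = 0.000237). The groups did not overlap with either tumour. Fas was higher under CD40 in 9 of 10 clusters of the set with control tumours and in 10 of 10 with B2m-null tumours. The B2m-null call held in 39 of 39 tested alternatives, while the control call was lost without control CD40 mouse 2 (adjusted p = 0.228), without the second control isotype lane (0.0719) and with thinned cells (0.0828). Fas was not called in dendritic cells, where control isotype mice had 37.4, 38.4, 34.8, 24.0 and 36.5 CPM and control CD40 mice 29.2 and 22.0 CPM, a change of -0.46 ± 0.33 (adjusted p = 0.526). With B2m-null tumours the dendritic cells had 27.4, 39.3, 23.2, 36.8 and 23.6 CPM under isotype and 60.8, 49.2, 33.5 and 21.1 CPM under CD40, which overlapped, a change of 0.33 ± 0.26 (adjusted p = 0.452) that was upward in 3 of 3 clusters.

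Regulatory T cells had 21.7, 6.88, 17.7, 17.6 and 29.7 CPM of Fas in control isotype and 42.6 and 38.5 CPM in control CD40 mice, a change of 1.06 ± 0.39 that missed the threshold (adjusted p = 0.0705). B2m-null isotype mice 1, 2, 4 and 5 had 16.3, 33.6, 17.3 and 17.3 CPM and B2m-null CD40 mice 36.8, 41.6, 54.9 and 45.8 CPM (log2 1.45 ± 0.34, adjusted p = 0.00547). No CD40 mouse overlapped an isotype mouse of its genotype. The B2m-null call was lost without barcodes holding CD8 coreceptor counts (log2 1.20 ± 0.48, adjusted p = 0.180) and without barcodes of mixed lineage (0.88 ± 0.42, adjusted p = 0.187). It was also lost without CD40 mouse 3 (0.132), without the second CD40 lane (0.485) or without the second isotype lane (0.0744). CD4 T cells had too few Fas counts for a test. Control isotype mice 1, 2, 4 and 5 had 34.8, 34.8, 22.7 and 12.7 CPM there and control CD40 mice 34.0 and 35.0 CPM. B2m-null isotype mice 4 and 5 had 17.1 and 0 CPM and B2m-null CD40 mice 2, 3 and 4 had 40.3, 25.8 and 30.9 CPM. NK cells also had too few for a test, with means of 7.23 ± 3.63, 26.6 ± 9.29, 6.91 ± 8.13 and 23.9 ± 7.07 CPM in the 4 groups. Summed T cell receptor complex transcripts in the NK cells had medians of 174, 801, 205 and 739 CPM in that order, and their part in the Fas level was not tested.

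Tnfrsf1b, the Tnf receptor without a death domain, rose in monocytes with macrophages under CD40. Control isotype mice had 136, 132, 121, 125 and 136 CPM and control CD40 mice 205 and 171 CPM, which did not overlap, a 1.58-fold rise (log2 0.66 ± 0.13, adjusted p = 0.00237) in 10 of 10 clusters. The call held in 38 of 38 tested alternatives. B2m-null isotype mice had 126, 163, 155, 156 and 105 CPM and B2m-null CD40 mice 185, 164, 143 and 139 CPM, which overlapped, and the fitted rise was 1.30-fold (log2 0.38 ± 0.11, adjusted p = 0.0129). There it was higher in 3 and lower in 7 of the 10 clusters, and the call was lost without the first CD40 lane (adjusted p = 0.158) and with the stricter filter on cells (0.0548). In dendritic cells Tnfrsf1b had 112, 106, 35.0 and 38.8 CPM in the B2m-null CD40 mice, the first pair from the first lane. The difference of the CD40 effects there was -0.48 ± 0.43 (adjusted p = 0.601), but -1.16 ± 0.33 without that lane (adjusted p = 0.0331).

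Under CD40, Tnfrsf1b was lower in CD8 T and NK cells with B2m-null than with control tumours. CD8 T cells had 127 and 113 CPM in control CD40 mice and 64.9, 72.4, 84.9 and 73.0 CPM in B2m-null CD40 mice, a fall by 0.59 ± 0.18 on the log2 scale (adjusted p = 0.0301) in 3 of 3 clusters. NK cells had 128 and 125 CPM against 64.3, 63.5, 79.3 and 63.7 CPM, a fall by 0.82 ± 0.22 (adjusted p = 0.0213). The groups did not overlap in either set. Neither call held without control CD40 mouse 1 (adjusted p = 0.170 in CD8 T and 0.171 in NK cells), mouse 2 (0.197 and 0.167), B2m-null CD40 mouse 4 (0.0803 and 0.0609) or the first B2m-null CD40 lane (0.0606 and 0.0788). The NK call was also lost without the first control CD40 lane (0.181), without the second B2m-null CD40 lane (0.0546) and with DESeq2 (0.0614). Both calls ended with marker gates (0.121 in CD8 T and 0.111 in NK cells), thinned cells (0.246 and 0.235) and the lane as the unit (0.379 and 0.25), and the CD8 T call with the stricter cell filter (0.0745). Of the tested alternatives, 28 of 36 kept the CD8 T call and 26 of 36 the NK call. CD4 T cells had a change of -0.47 ± 0.20 (adjusted p = 0.133) and regulatory T cells one of 0.13 ± 0.19 (adjusted p = 0.880). Regulatory T cells, with the highest lymphoid level, had means of 197 ± 22.9, 243 ± 8.19, 206 ± 15.3 and 266 ± 44.7 CPM in the 4 groups, and the change under CD40 in B2m-null tumours was 0.39 (adjusted p = 0.0996).

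Tnfrsf1a, the Tnf receptor with a death domain, rose in CD8 T cells under CD40 with control tumours. Control isotype mice had 16.3, 5.85, 16.7, 14.2 and 13.8 CPM and control CD40 mice 27.0 and 21.2 CPM, with no overlap (log2 0.77 ± 0.23, adjusted p = 0.0111). Tnfrsf1a was higher under CD40 in 2 and lower in 1 of the 3 CD8 T clusters there. B2m-null isotype mice 1, 3, 4 and 5 had 19.9, 25.7, 17.3 and 15.0 CPM and B2m-null CD40 mice 27.3, 19.1, 23.6 and 21.2 CPM, which overlapped (log2 0.44, adjusted p = 0.362). The control call was lost without control CD40 mouse 1 (adjusted p = 0.104), without the first isotype lane (0.0624) or the first CD40 lane (0.0573), with the lane as the unit (0.116), with marker gates (0.101) and with thinned cells (0.315). Monocytes with macrophages had 104, 119, 112, 101 and 100 CPM in control isotype and 82.7, 59.4, 74.2, 96.6 and 108 CPM in B2m-null isotype mice. The change of -0.37 ± 0.13 missed the threshold (adjusted p = 0.0883), and B2m-null mouse 5 lay within the control range. In this comparison Tnfrsf1a was lower with B2m-null tumours in 10 of 10 clusters. The difference of the CD40 effects on Tnfrsf1a in this set was 0.49 ± 0.23 (adjusted p = 0.135), but 0.75 ± 0.18 without the second B2m-null isotype lane (adjusted p = 0.00619) and 0.61 ± 0.20 without B2m-null isotype mouse 5 (adjusted p = 0.0378). Tnfrsf10b, the TRAIL receptor, was tested in monocytes with macrophages only, at 0.121 to 1.46 CPM a mouse, and the change under CD40 in control tumours was -0.26 ± 0.52 (adjusted p = 0.767).

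Casp8, the initiator protease below Fas and Tnfrsf10b, had 0 calls with edgeR in 32 tests over sets and comparisons, with 2 at an unadjusted p under 0.05, 0 with limma and 0 with DESeq2, which gave no adjusted p for 3 of them. Its log2 changes lay between -0.52 and 0.62. Monocytes with macrophages had 114, 124, 96.8, 93.7 and 105 CPM in control isotype, 89.6 and 80.6 CPM in control CD40, 114, 155, 126, 105 and 89.9 CPM in B2m-null isotype and 101, 95.7, 85.4 and 85.3 CPM in B2m-null CD40 mice. The change under CD40 in control tumours was -0.20 ± 0.14 (95% interval -0.48 to 0.08, adjusted p = 0.337), with both control CD40 mice below all control isotype mice and a lower level in 9 of 10 clusters. In B2m-null tumours it was -0.13 ± 0.11 (95% interval -0.36 to 0.09, adjusted p = 0.383), with overlapping groups and a lower level in 10 of 10 clusters. In CD8 T cells the change was 0.12 (adjusted p = 0.574), with 79.8, 72.2, 88.0, 89.1 and 89.2 CPM in control isotype and 91.0 and 87.9 CPM in control CD40 mice.

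In melanoma cells, Tnfrsf1a, Tnfrsf1b and Casp8 had enough counts for a test. CD45 beads do not select tumour cells, and the set had 798 cells and 18.1 M UMIs in 11 mice. Tnfrsf1a was at 55.6, 49.4, 61.7, 60.3 and 53.8 CPM in control isotype, 49.0 and 53.2 CPM in control CD40 and 37.5, 50.3 and 35.3 CPM in B2m-null isotype mice 1, 2 and 4. Only B2m-null mouse 2 lay within the control isotype range, and the genotype change was -0.50 ± 0.18 (adjusted p = 0.162). Casp8 was at 71.2, 44.9, 58.8, 55.1 and 62.9 CPM in control isotype, 54.1 and 57.1 CPM in control CD40 and 66.0, 61.4 and 44.7 CPM in B2m-null isotype mice, which overlapped. The CD40 changes in control tumours were 0.03 ± 0.16 for Tnfrsf1a (95% interval -0.27 to 0.34, adjusted p = 0.964) and 0.06 for Casp8 (95% interval -0.26 to 0.37, adjusted p = 0.928). Of the 3 members tested, edgeR called 0 for CD40 in control tumours, where it called 4.83% of all genes of the set, and 0 for the genotype under isotype, where it called 1.9%. At an unadjusted p under 0.05 there were 0 and 1, and limma called 0. DESeq2 called 0 for CD40, with no adjusted p for 1 of the 3, and gave no adjusted p for any of the 3 for the genotype. The single B2m-null CD40 mouse with enough melanoma cells had 58.0 CPM of Tnfrsf1a and 39.3 CPM of Casp8 and was not compared.

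Fas in melanoma cells amounted to 39 counts in all, 2.15 CPM pooled, and 6 of the 11 mice had none. Control isotype cells had 4 counts (0.729 CPM pooled) and control CD40 cells 30 counts (2.97 CPM), with 2.92 and 2.98 CPM in the mice. B2m-null isotype cells had 1 count (0.487 CPM pooled), and the 27 cells of the B2m-null CD40 mouse had 4 counts, 8.28 CPM, the highest level of the groups. Macrophages had 19.7 CPM of Fas, and the part of macrophage RNA in the Fas counts of melanoma cells was not tested. The ligands were low as well, with 89 counts of Tnf (4.91 CPM), 30 of Tnfsf10 (1.66 CPM) and 20 of Fasl. Of the Fasl counts, 19 were in control CD40 and 1 in control isotype, and the counts of 0 with B2m-null tumours allow levels up to 1.46 CPM under isotype and 6.21 CPM under CD40. T cell receptor complex transcripts in the set had means of 10.9, 35.8, 14.2 and 60.1 CPM, the last in 1 mouse, and 6 of the 19 counts remained without barcodes holding them. Tnfrsf10b had 59 counts in the set (3.26 CPM) and Tnfrsf1b 215 (11.9 CPM).

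Other genes of the pathway were taken from a list of 41 further ligands, receptors, adaptors, inhibitors and effectors. In monocytes with macrophages 39 of them were tested. Anti-CD40 in control tumours raised 3 and lowered 1 (21.5% of all genes of the set called), and in B2m-null tumours it raised 13 and lowered 5 (36.3% called). Ltb, the lymphotoxin beta ligand, rose with both tumours (log2 1.07 ± 0.30, adjusted p = 0.0169, and 0.75 ± 0.27, adjusted p = 0.0357). T cell receptor complex transcripts in this set moved with it, from means of 12.7 to 37.5 CPM under CD40 in control and from 13.0 to 23.8 CPM in B2m-null tumours, and their part in the Ltb change was not tested. Bid, the protein that links Casp8 to mitochondria, rose in control tumours (0.53 ± 0.11, adjusted p = 0.00363), and the ligand Tnfsf15 in B2m-null tumours (2.54 ± 0.55, adjusted p = 0.00258). The necroptosis genes Ripk3, Mlkl and Zbp1 are the only role group of the list counted here, outside the naming rule given below, and no group was tested as a set. They were called as follows: 3 of 3 rose under CD40 in B2m-null tumours (Zbp1 by 1.25 ± 0.31, adjusted p = 0.00650), 3 of 3 were lower in B2m-null than in control tumours under isotype, and Ripk3 fell under CD40 in control tumours (-0.49 ± 0.16, adjusted p = 0.0375). For 3 of 3 the CD40 effects differed between the genotypes, among 7 higher and 2 lower of the 39 (19.0% of all genes of the set called), by 1.17 ± 0.21 for Ripk3 (adjusted p = 0.00200) and 1.72 ± 0.51 for the nucleic acid sensor Zbp1 (adjusted p = 0.0299), and so did those of the receptor Tnfrsf12a (0.98 ± 0.30, adjusted p = 0.0282). Under isotype, 6 of the 39 were called in B2m-null against control tumours, all lower (8.65% of all genes), including Tnfsf15 (-2.10 ± 0.54, adjusted p = 0.0294), Zbp1 (-1.13 ± 0.30, adjusted p = 0.0330) and the pore-forming Mlkl (-0.62 ± 0.11, adjusted p = 0.00497). Under CD40, B2m-null against control tumours gave higher Ripk3 (0.67, adjusted p = 0.0206) and Tradd (0.55, adjusted p = 0.0486), the adaptor of Tnfrsf1a, and lower Bid (-0.44, adjusted p = 0.0296).

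Dendritic cells had 36 genes of the list tested. Under CD40 in control tumours Ltb (0.97 ± 0.24, adjusted p = 0.0267) and Bid (0.86 ± 0.21, adjusted p = 0.0199) rose. Zbp1 (1.19 ± 0.17, adjusted p = 0.000145), Tradd (0.86 ± 0.25, adjusted p = 0.0250) and Ltb (0.73 ± 0.22, adjusted p = 0.0354) rose in B2m-null tumours. T cell receptor complex transcripts in dendritic cells also went up under CD40, from means of 322 to 578 CPM in control and 202 to 370 CPM in B2m-null tumours, and barcodes holding any were 20.1%, 40.2%, 18.1% and 22.6% of the set in the 4 groups. Their part in the Ltb changes was not tested. Zbp1 was lower with B2m-null than with control tumours under isotype (-1.05 ± 0.14, adjusted p = 0.000298), and its CD40 effects differed between the genotypes by 1.77 ± 0.27 (adjusted p = 0.000307).

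Genes of that list were also called in lymphoid cells. In CD8 T cells 33 were tested, and anti-CD40 raised 9 and lowered 5 in control tumours (39.4% of all genes called) and raised 4 and lowered 1 in B2m-null tumours (8.51% called). Tnfrsf25, a death domain receptor of T cells, rose with both (2.37 ± 0.58, adjusted p = 0.00258, and 3.96 ± 1.07, adjusted p = 0.0237), and Fadd, the adaptor between Fas and Casp8, fell in control tumours (-1.24 ± 0.31, adjusted p = 0.00349). Lta, lymphotoxin alpha, also fell there (-1.13 ± 0.44, adjusted p = 0.0445). With B2m-null tumours, Zbp1 and Ltb rose in CD8 T cells under CD40 (1.36 ± 0.21, adjusted p = 0.000553, and 0.78 ± 0.15, adjusted p = 0.00336). The CD40 effects differed between the genotypes in CD8 T cells for Cflar, an inhibitor of Casp8 (-0.81, adjusted p = 0.0234), and for Bid (-1.35, adjusted p = 0.0172). B2m-null against control tumours under CD40 gave lower Bid (-0.80, adjusted p = 0.0228) and Tnfaip3 (-0.66, adjusted p = 0.0169) and higher Zbp1 (0.63, adjusted p = 0.0348) in these cells. In CD4 T cells 22 were tested, and Lta rose under CD40 in control tumours (3.44 ± 0.88, adjusted p = 0.0270) and was lower in B2m-null than in control tumours under CD40 (-1.70 ± 0.36, adjusted p = 0.00610), as were Traf2 (-0.88, adjusted p = 0.0329) and Adam17 (-0.68, adjusted p = 0.0450). Under CD40 in B2m-null tumours, Bax (1.03, adjusted p = 0.0412) and Ltb (0.98, adjusted p = 0.00533) rose and Tnfaip3 (-0.91, adjusted p = 0.00218) fell in CD4 T cells. CD4 T barcodes with CD8 coreceptor counts were 10.2%, 32.6%, 9.76% and 31.7% in the 4 groups. The part of those barcodes in these CD4 T changes was not tested. In regulatory T cells, 3 of 31 rose in control tumours (12.8% of all genes called), the ubiquitin ligase Birc2 (0.92 ± 0.19, adjusted p = 0.00107), the NF-kB inhibitor Tnfaip3 (0.87 ± 0.18, adjusted p = 0.00151) and Rbck1 (0.73, adjusted p = 0.0382). In B2m-null tumours 2 rose, Ltb (0.98, adjusted p = 0.0379) and Zbp1 (0.97, adjusted p = 0.0362). In NK cells, 3 of 26 were higher and 1 was lower under CD40 in B2m-null tumours (10.6% of all genes called), among them Zbp1 (0.77, adjusted p = 0.0499), Xiap (-0.76, adjusted p = 0.0210) and Bak1 (0.73, adjusted p = 0.0419). T cell receptor complex transcripts in these NK cells went from a mean of 205 to 758 CPM, and their part in the NK changes was not tested. Melanoma cells had 34 tested, with Cycs, the cytochrome c gene, higher under CD40 in control tumours (0.53 ± 0.11, adjusted p = 0.00257), and Zbp1 (-1.83 ± 0.34, adjusted p = 0.0118) and the pro-apoptotic Bax (-0.51 ± 0.11, adjusted p = 0.0111) lower in B2m-null than in control tumours under isotype.

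Genes whose mean levels followed each member most closely over the 15 classes were listed by Pearson's correlation of log2(CPM + 10) among 12281 genes, as a description of points that share libraries. Fasl was most like Klrc1 (0.984), followed by Cd160 and Klrc2, receptors of NK and T cells. For Tnf the closest was Mcl1 (0.947), for Fas Ehd1 (0.842), for Tnfsf10 Ppm1j (0.959) and for Tnfrsf10b Plcd1 (0.967). Tnfrsf1a was most like Ubtd1 (0.958), Tnfrsf1b like Glrx (0.909) and Casp8 like Hip1 (0.869). Between members over the same 15 classes, Tnf and Tnfrsf1b had a correlation of 0.789, and Fasl and Tnfrsf1a one of -0.700.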

How the data were processed

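Droplet 3' version 3 libraries of CD45-enriched B16 tumour cells were sequenced on 8 lanes. The deposited matrices hold raw counts of UMIs per gene and barcode, with hashtag counts in the same files, per the file headers. Cell Ranger 3.0.0, bcl2fastq 2.20.0.422 and the mm10 build are named in the submitters' processing notes. Gene spans are from the GENCODE annotation of mm10, matched by gene identifier.

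Each hashtag was taken as 1 mouse, and the 2 technical lanes of the control CD40 pool were summed. A barcode was a doublet if a second hashtag exceeded its background by 2.5 SD, which removed 10445 of 116552 (8.96%), and 14436 barcodes had no assigned hashtag. Doublets within a mouse could not be marked this way. Lanes shared 41 to 92 barcodes with another lane. Filters of 200 detected genes or more and no more than 10% mitochondrial counts left 90766 cells. Clustering used scanpy 1.11.5 and leidenalg 0.10.2 (2000 variable genes, 40 components, 20 neighbours, resolution 1) and gave 29 clusters. Each took the class of its markers if it had 50 cells, 3 raised markers and a margin of 0.25, and if under 30% of its cells were mixed. The thresholds for naming were chosen with the data in view. They gave 16 classes and left 3 clusters unnamed, with 8.09% of the cells.

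Counts were summed per mouse and cell set, with at least 20 cells, and all groups were fitted together with edgeR 4.0.16 (TMM, filterByExpr, quasi-likelihood test) in R 4.3.3, with Benjamini-Hochberg adjustment over all genes tested. DESeq2 1.42.0 and limma 3.58.1 were alternatives, beside other scalings, filters, gates, thinning to 1500 UMIs a cell with shallower cells left out, the lane as the unit, and leaving out each mouse and lane. All 8 members are named. Of the pathway list, the rule names the called genes with the largest changes, up to 3 per set and comparison. Nothing in the labels but the hashtag separates the mice, so the spread between them includes staining errors. The members, lists and markers were chosen with earlier results of these data known.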

Additional observations from a re-analysis of the deposited data

Results flagged for a closer look

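A total of 110 groups of 4 or 5 mice were searched for a mouse far from the rest of its group, by the gap to its nearest neighbour over the range (Dixon's 95% limit). The search marks about 1 group in 20 by chance, which is 5.5 groups here, and 9 were marked. In conventional dendritic cells, Fas was at 24.0 CPM in control isotype mouse 4, with the next mouse at 34.8 CPM. In CD8 T cells, Casp8 was at 64.9 CPM in B2m-null CD40 mouse 1 (next 89.4 CPM) and at 153 CPM in B2m-null isotype mouse 1 (next 105 CPM). Tnfrsf1a was at 5.85 CPM in the CD8 T cells of control isotype mouse 2 (next 13.8 CPM), which is the lowest value behind the CD8 T call of that gene. In regulatory T cells, Fas was at 33.6 CPM in B2m-null isotype mouse 2 (next 17.3 CPM) and Tnfrsf1a at 67.7 CPM in control isotype mouse 3 (next 46.1 CPM). In NK cells of B2m-null isotype mouse 1, Casp8 was at 186 CPM (next 94.6 CPM) and Tnfsf10 at 133 CPM (next 63.1 CPM). Tnfrsf1b was at 79.3 CPM in the NK cells of B2m-null CD40 mouse 3 (next 64.3 CPM).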

How the results depend on the processing

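The 22 called member changes were recomputed under 789 alternative values: 788 kept their direction, of which 676 were still called and 112 were not, and a further 29 could not be tested. The value that reversed was the CD40 change of Fasl in CD8T cells with B2m-null tumours, -0.021 when thinned, which was not called either. The number of called pairs for CD40 in control tumours, 9, was 5 with marker gates, 5 with thinned cells and up to 11 with other settings, and 4 to 11 when a mouse or lane was left out, lowest without control CD40 mouse 2. For CD40 in B2m-null tumours, 8 became 4 with the stricter cell filter, 4 with marker gates, 3 with thinned cells and 5 without barcodes holding T cell markers (an alternative chosen after the data had been seen) but 10 at clustering resolution 2, and 3 to 8 with a mouse or lane left out, lowest without the second B2m-null CD40 lane. For B2m-null against control under isotype, 2 became 1 with RLE size factors, without the low count filter, with the lane as the unit, with the stricter cell filter and in macrophages alone. It was 0 to 2 with a mouse or lane left out, and 0 without the first control isotype or the first B2m-null isotype lane. Under CD40, 3 became 1 with DESeq2 (which gave 1 of them no adjusted p), 0 with the lane as the unit, 0 with marker gates, 1 with thinned cells and 4 in monocytes alone, and 0 to 4 with a mouse or lane left out, lowest without control CD40 mouse 2. The difference of the CD40 effects, 0, became 2 with thinned cells and 1 in monocytes alone, and 0 to 1 with a mouse or lane left out. Thinning, gates and the stricter filter tested fewer pairs. Some calls were lost in pairs still tested by edgeR. With the stricter filter and CD40 in B2m-null tumours, adjusted p was 0.111 for Fasl and 0.0548 for Tnfrsf1b in monocytes with macrophages. In CD8 T cells it was 0.0644 for Fasl. Why the numbers of calls differed was not tested. Lanes of different groups shared replicate numbers. With the replicate block the calls were 6 for CD40 in B2m-null tumours and 2 for the genotype under isotype. The difference between lanes 2 and 1 over genes, in monocytes with macrophages, was correlated between the groups other than control CD40. These correlations were 0.02, 0.16 and 0.18. The lanes also held different mice, so these values cannot tell whether same-numbered lanes shared a batch. With 2 control CD40 mice from 1 pool, every comparison with that group rests on those mice. Few counts limited the values of Tnfrsf10b in most sets, of Fas in CD4 T, NK and melanoma cells and of Fasl in myeloid cells.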
